A study of Mus musculus with 8 samples.

Results

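The aggrecanases and procollagen N-proteinases are secreted metalloproteinases of the ADAMTS family, and 9 of them are described here together with Timp3, an inhibitor that binds several of them. The 10 genes were taken by name from a table of 20681 genes, and all 10 had values high enough to be tested. Poly-A RNA from mouse knee joints was sequenced in 4 libraries labelled control and 4 labelled knockout of Loxl2, which encodes a collagen-crosslinking enzyme. Per the labels, the mice of the series carried Acan-Cre and Loxl2 fl/fl alleles, so the Cre recombinase follows the aggrecan gene, a gene of cartilage cells, and cells of the joint that do not express it would keep Loxl2. The control samples were described as vehicle-treated and carry LOXL2wt in their library names, and the others carry LOXL2ko. An agent given to the knockout mice in place of vehicle, the ages and sexes of the mice, and whether a library holds 1 animal are not given in the sources used here. All 8 library names also hold DMM, the usual abbreviation of a knee surgery, medial meniscus destabilisation, used to bring on osteoarthritis, so no uninjured joint is compared.

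ADAMTS proteases are made as inactive precursors, are activated by furin-like convertases, and use a zinc ion in their catalytic domain. Aggrecanases cut the core protein of aggrecan, the large proteoglycan that holds water in cartilage, and their activity is a hallmark of cartilage loss in arthritis. Procollagen N-proteinases remove the amino-terminal propeptide of fibrillar procollagens, a step that lets collagen assemble into fibrils. TIMP3 is the member of its family that inhibits aggrecanases and stays bound to the extracellular matrix.

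The libraries held 13991000 to 17411617 reads assigned to genes. Values are normalised read counts, that is reads divided by a size factor of the library, and differences are log2 differences of libraries labelled knockout minus control on the log2(value + 1) scale, which slightly understates the change of genes with few reads. A gene is called where limma's p, adjusted by the Benjamini-Hochberg method over the 14949 genes tested, is under 0.05. By that rule 23.2% of the tested genes were called, 11.6% higher and 11.6% lower. Loxl2 itself had 282, 349, 1135 and 311 normalised reads in the control libraries, in replicate order, and 893, 1468, 960 and 1518 in the libraries labelled knockout (log2 difference 1.44, limma adjusted p = 0.0294), so its transcript was not lower where the label names a knockout. The call of Loxl2 was lost with edgeR (adjusted p = 0.0669) and DESeq2 (0.0659), and with any of control replicates 1, 2 and 4 or knockout replicates 2 and 4 left out (limma adjusted p 0.0666 to 0.0849), while the difference stayed at 1.24 to 1.91 over the 8 fits without 1 library. Its groups overlapped, and whether the counted reads lie in the deleted part of the gene was not analysed here. Every direction below is therefore given by label only. Cartilage and synovium markers were present in every library, with Acan at 52.3 to 544 and Prg4, the lubricin gene, at 10288 to 42836 normalised reads. Muscle RNA was abundant, since the 8 genes of a skeletal muscle list summed to 1921680 to 2032300 in the control libraries and 894506 to 1283910 in those labelled knockout.

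Of the 10 genes, 4 were called and all 4 were higher in the libraries labelled knockout, namely Adamts4, Adamts2, Adamts15 and Adamts14. The other 6 were not called. The called share, 40.0%, stood against 23.2% of all tested genes in either direction and 11.6% in the higher direction. The genes were chosen with earlier results of these data known, so these shares are a description. The median log2 difference was 0.93 over the 10 genes and 0.00 over all tested genes. A further 4 genes had an unadjusted limma p under 0.05 without passing the adjustment, and 0 were called lower by limma, edgeR or DESeq2. In 4 of the 10 genes the groups did not overlap, each time with the libraries labelled knockout on the higher side, a pattern that 25.1% of all tested genes showed in either direction, 11.7% in the higher and 13.4% in the lower direction.

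**Figure D1:**
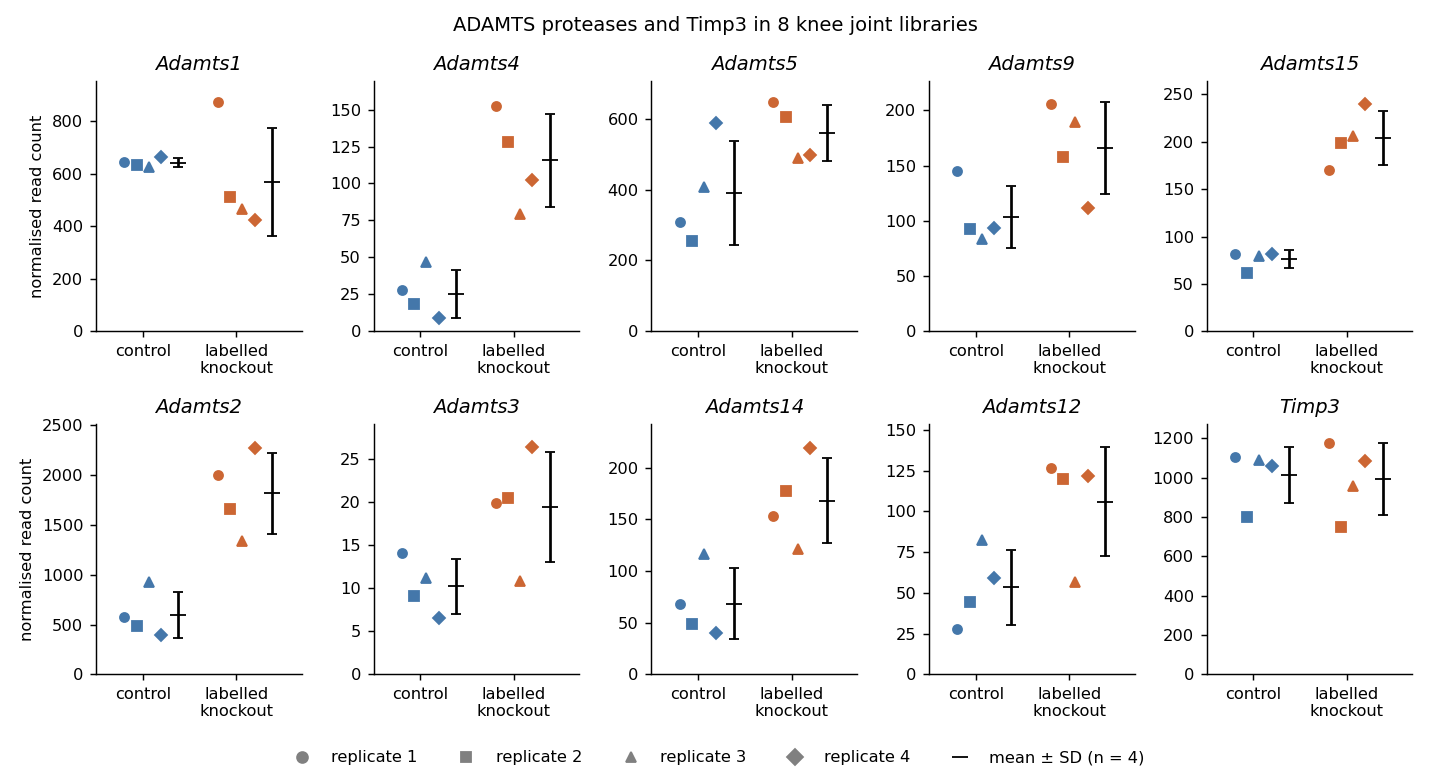
Normalised read counts of the 9 ADAMTS genes and Timp3, with 1 point per library, marker shapes for the replicate numbers and bars for the mean ± SD of 4 libraries per group; each panel has its own axis from 0. The groups are apart in Adamts4, Adamts15, Adamts2 and Adamts14 and overlap in the other 6 panels.

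**Figure D2:**
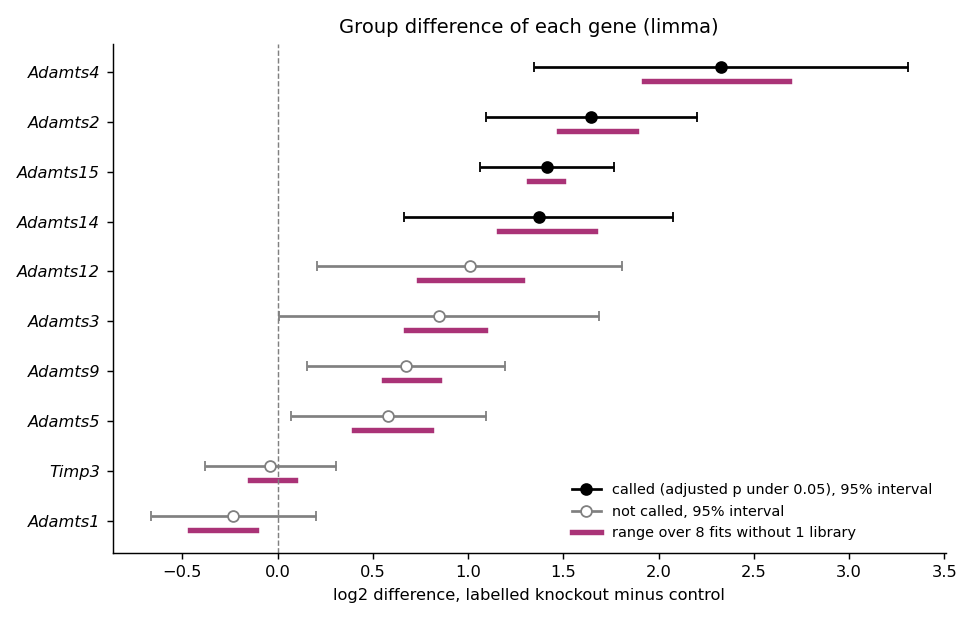
Log2 difference of the libraries labelled knockout minus control for each gene, with its 95% interval from limma (filled points called, open points not called) and, below each, the range of the difference over the 8 fits that left out 1 library. The difference runs from -0.23 for Adamts1 to 2.33 for Adamts4, and the interval of Timp3, from -0.38 to 0.31, lies around 0.

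The aggrecanase with the largest difference was Adamts4, one of the main aggrecanases of inflamed joint tissue. It lies on chromosome 1 from 171250421 to 171260637 (mm10, plus strand). Its normalised read counts were 28.1, 18.2, 46.7 and 8.76 in the 4 control libraries, in replicate order, and 153, 128, 79.4 and 102 in the 4 labelled knockout. Every library labelled knockout stood above every control library, although the control libraries themselves varied widely, from replicate 4 to replicate 3. The mean rose from 25.4 ± 16.2 to 116 ± 31.7 (SD, n = 4 each), which is 2.33 ± 0.44 (SE) on the log2 scale (limma adjusted p = 0.00828; exact permutation test p = 0.0286). With 4 libraries against 4, 0.0286 is the smallest p that the two-sided exact permutation test can give. The lowest control library held 8 reads of this gene, so counting error is large there. The call held without any 1 of the 8 libraries, with adjusted p-values of 0.00383 to 0.0263.

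Adamts5, the aggrecanase whose loss protects mice from cartilage erosion, behaved less evenly. It lies on chromosome 16 from 85856173 to 85901828 on the minus strand. The control libraries held 308, 255, 408 and 588 normalised reads and the libraries labelled knockout 646, 605, 489 and 497. Control replicate 4 lay above knockout replicates 3 and 4, so the groups overlapped. The means were 390 ± 147 and 559 ± 78.2 (SD, n = 4 each), and the log2 difference of 0.58, with a 95% interval of 0.07 to 1.09, did not pass the test (limma adjusted p = 0.0922, exact permutation p = 0.0857). With control replicate 4 left out the gene was called at a difference of 0.80 (adjusted p = 0.0243), whereas over all fits without 1 library the adjusted p reached 0.221.

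Adamts1 is a protease of versican and, more weakly, of aggrecan, and its gene is the neighbour of Adamts5, 53059 bases away on the same strand (chromosome 16, 85793827 to 85803113). The control libraries were close together at 645, 633, 627 and 666 normalised reads. Those labelled knockout were spread out, at 875, 513, 467 and 426, so that knockout replicate 1 lay above all control libraries and the other 3 below all of them. The log2 difference was -0.23, with a 95% interval of -0.67 to 0.20 (limma adjusted p = 0.410, exact permutation p = 0.400). Knockout replicate 1 decided this result, since without it the difference was -0.46 and the gene was called as lower (adjusted p = 0.0205). The means of Adamts1 were 643 ± 17.2 and 570 ± 206 (SD, n = 4 each).

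Adamts15, another protease of aggrecan and versican, had the smallest limma p of the 10 genes. It lies on chromosome 9 from 30899155 to 30922452 on the minus strand. The control libraries held 81.1, 61.6, 79.4 and 81.1 normalised reads and the libraries labelled knockout 171, 198, 207 and 240. The groups were far apart, and the spread inside each was small. From 75.8 ± 9.51 the mean rose to 204 ± 28.7 (SD, n = 4 each), which is 1.41 ± 0.16 (SE) on the log2 scale (limma adjusted p = 0.00397; exact permutation test p = 0.0286). The call held without any 1 library, with adjusted p-values of 0.00242 to 0.0142.

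Adamts9, a protease of versican and aggrecan that is also made by blood vessel cells, lies on chromosome 6 from 92772699 to 92943492. It had 145, 92.9, 83.2 and 93.1 normalised reads in the control libraries and 205, 157, 189 and 112 in those labelled knockout. Control replicate 1 stood above knockout replicate 4, and those 2 libraries alone made the groups overlap. The log2 difference of 0.67 (95% interval 0.15 to 1.19) was not called (exact permutation p = 0.0571, limma adjusted p = 0.0612). It passed without control replicate 1 (adjusted p = 0.0294), without knockout replicate 4 (0.0399) and by DESeq2 (0.0307). Genes on the opposite strand share 9.18% (A730049H05Rik) and 2.82% (Gm15737) of its exon bases, and whether counting used the strand is not given in the sources used here.

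Levels of different genes were compared as normalised reads per kilobase of annotated exon, with exon lengths from GENCODE M21. This scale treats all exons as used, so it understates genes with many rarely used exons. In the control group Timp3 (125 ± 17.6 per kilobase) and Adamts1 (121 ± 3.24) led and did not differ beyond their spread. Adamts2 (64.1 ± 24.8), apart from Adamts1, and Adamts5 (36.1 ± 13.6) followed, with overlapping libraries. Below Adamts5 and apart from it, each gene's libraries overlapped with the next in order for Adamts14 (13.2 ± 6.59), Adamts15 (7.31 ± 0.92), Adamts9 (6.88 ± 1.86), Adamts4 (5.29 ± 3.38), Adamts12 (4.90 ± 2.10) and Adamts3 (1.88 ± 0.59). In the libraries labelled knockout Adamts2 led with 195 ± 43.7 per kilobase, overlapping with Timp3 (122 ± 22.7), which in turn overlapped with Adamts1 (108 ± 38.9). Next came Adamts5 (51.8 ± 7.25), apart from both its neighbours in the order, and then Adamts14 (32.3 ± 7.90), Adamts4 (24.0 ± 6.60) and Adamts15 (19.7 ± 2.77), which overlapped in turn. The lowest levels were those of Adamts9 (11.03 ± 2.74), apart from Adamts15 and overlapping with Adamts12 (9.72 ± 3.04), and of Adamts3 (3.58 ± 1.18), apart from Adamts12.

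The makeup of the 5 proteoglycan-cleaving genes differed accordingly. Adamts1 made up 64.1% to 75.1% of their summed level per kilobase in the control libraries and 45.1% to 57.5% in those labelled knockout. Adamts4 made up 0.93% to 5.43% and 9.05% to 12.8%. The share of Adamts5 overlapped between the groups, at 14.9% to 27.8% and 20.9% to 26.8%, and so did that of Adamts9, at 3.09% to 5.55% and 4.17% to 6.90%. Adamts15 held 3.74% to 4.51% and 5.74% to 13.01%. These shares are parts of 1 sum and do not vary independently.

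**Figure D3:**
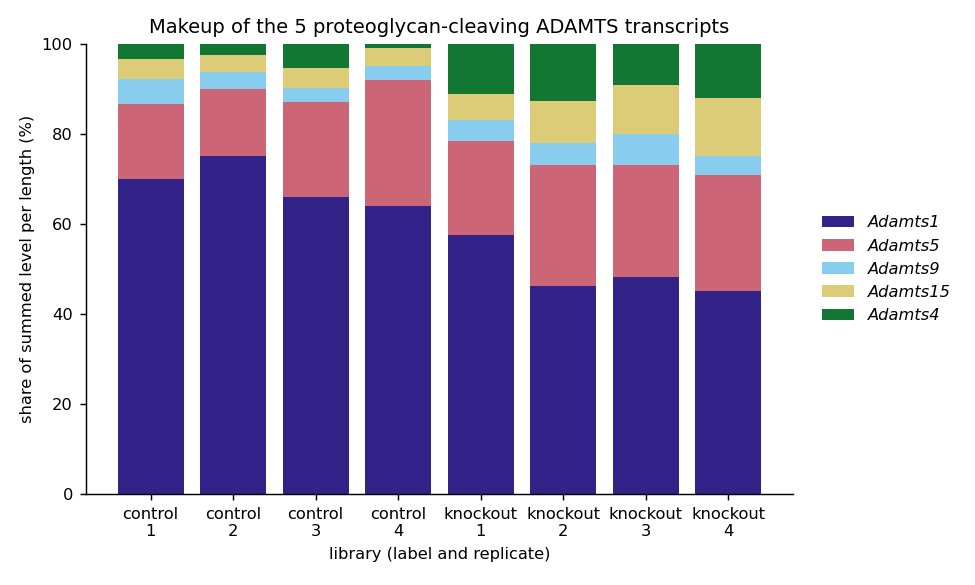
Share of each gene in the summed normalised reads per kilobase of Adamts1, Adamts5, Adamts9, Adamts15 and Adamts4, as stacked bars with 1 bar per library. The Adamts1 part is at least 64.1% in every control library and at most 57.5% in every library labelled knockout, and the Adamts4 part is at most 5.43% and at least 9.05%.

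To compare the responses of these genes with each other, 9 ratios of levels per kilobase were computed within each library. The groups were compared by the exact permutation test on the log2 ratio, with p-values adjusted over the 9. These pairs were chosen after values were seen, so the p-values are descriptive. The Adamts4 to Adamts5 ratio was 0.205, 0.160, 0.257 and 0.0334 in the control libraries and 0.530, 0.476, 0.364 and 0.461 in those labelled knockout. The groups of this ratio did not overlap, and the log2 difference was 1.81 (exact permutation p = 0.0286, adjusted 0.0857), or 1.16 without control replicate 4, the lowest. The Adamts1 to Adamts5 ratio, that of the neighbouring genes, was 2.30 to 5.04 in the control libraries and 1.73 to 2.75 in the others (log2 difference -0.82, exact permutation p = 0.0571, adjusted 0.129). None of the 9 ratios passed 0.05 after adjustment. The ratios with separate groups already had 0.0286, the smallest p of the exact permutation test, and were still at 0.0857 after adjustment. The adjusted test therefore could not pass them, and it does not show that the responses were alike.

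Among the procollagen N-proteinases, Adamts2 is the main enzyme of skin and tendon, and its loss causes fragile skin. Its gene spans 50602084 to 50807573 of chromosome 11, plus strand. The control libraries held 579, 488, 927 and 399 normalised reads and the libraries labelled knockout 2004, 1655, 1337 and 2272. Control replicate 3 was the highest control and was still below every library labelled knockout. The mean rose from 598 ± 231 to 1817 ± 408 (SD, n = 4 each), which is 1.65 ± 0.25 (SE) on the log2 scale (limma adjusted p = 0.00456; exact permutation test p = 0.0286), and the call held without any 1 library.

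Adamts14, a related enzyme of the same reaction, lies on chromosome 10 from 61197112 to 61273438 on the minus strand. It had 68.1, 48.5, 117 and 40.5 normalised reads in the control libraries and 154, 178, 122 and 219 in those labelled knockout. The groups were separate by a narrow margin, between control replicate 3 and knockout replicate 3. The log2 difference was 1.37 ± 0.32 (SE), from 68.5 ± 34.3 to 168 ± 41.1 (SD, n = 4 each; limma adjusted p = 0.0156, exact permutation p = 0.0286). Without knockout replicate 4 the difference was 1.23 and the gene was not called (adjusted p = 0.0512).

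Adamts3, the N-proteinase known for procollagen II in cartilage and for processing of the lymphatic growth factor VEGF-C, lies on chromosome 5 from 89677087 to 89883334. It was the least abundant of the 10 genes, with 6 to 30 reads per library. Its normalised counts were 14.1, 9.08, 11.2 and 6.57 in the control libraries and 19.9, 20.5, 10.9 and 26.4 in those labelled knockout, and only knockout replicate 3 lay within the control range. The log2 difference of 0.85 (95% interval 0.01 to 1.69) was not called (limma adjusted p = 0.128, exact permutation p = 0.0857). Adamts2 held most of the summed level per kilobase of the N-proteinase group. Its share was 79.8% to 82.6% in the control libraries and 82.3% to 86.6% in the others, overlapping only through knockout replicate 2. The share of Adamts14 was 14.7% to 18.2% and 11.9% to 15.9%, and that of Adamts3 1.67% to 3.33% and 1.19% to 1.76%, also with overlap. The Adamts2 to Adamts14 ratio was 4.42 to 5.60 and 5.18 to 7.26 (log2 difference 0.26, exact permutation p = 0.114, adjusted 0.171).

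The substrates of these enzymes are the fibrillar procollagens. Of the 4 fibrillar procollagen genes on the list, 3 were called higher and 0 lower, with a median log2 difference of 1.67 against 0.00 over all tested genes. Col3a1 rose from 15445 ± 15418 to 58886 ± 15031 (log2 difference 2.40, limma adjusted p = 0.0167), Col1a1 from 28784 ± 21107 to 76510 ± 12926 (1.68, adjusted p = 0.0214) and Col1a2 from 24150 ± 17733 to 63636 ± 15481 (1.67, adjusted p = 0.0274). Col1a1 was no longer called when control replicate 2 or 4 or knockout replicate 1 or 4 was left out (adjusted p 0.0532 to 0.0601), Col1a2 when any of the same libraries or knockout replicate 2 was (0.0589 to 0.0730), or by edgeR (0.0555), and Col3a1 without knockout replicate 4 (0.0508). Col2a1, the procollagen of cartilage, was not called (log2 difference 0.79, adjusted p = 0.441). Per kilobase, the Adamts2 to Col1a1 ratio was 0.00701, 0.0259, 0.0214 and 0.0209 in the control libraries and 0.0151, 0.0169, 0.0147 and 0.0200 in those labelled knockout. The log2 difference was -0.03 (exact permutation p = 0.943, adjusted 0.943). That value rested on control replicate 1, the lowest of all: the other 3 control libraries lay above all 4 labelled knockout, and without replicate 1 the difference was -0.45 (exact permutation p = 0.0571, the smallest that 3 against 4 allows). The Adamts14 to Col1a1 ratio had a difference of -0.29 (exact permutation p = 0.543, adjusted 0.611), and -0.68 without control replicate 1. For Adamts2 to Col3a1 it was -0.75 (exact permutation p = 0.200, adjusted 0.257), and -0.38 without control replicate 1. Without control replicate 3 the Adamts2 to Col3a1 difference was -1.12, and the groups did not overlap (exact permutation p = 0.0571).

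**Figure D4:**
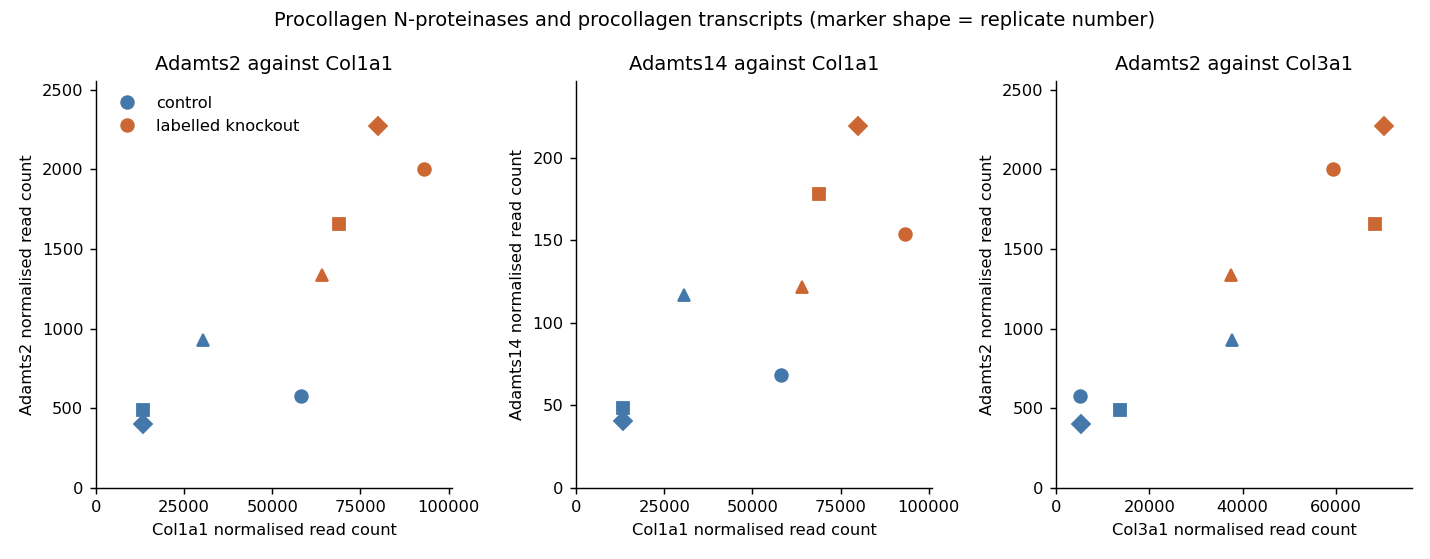
Normalised read counts of Adamts2 against Col1a1, Adamts14 against Col1a1 and Adamts2 against Col3a1, with 1 point per library, colours for the groups, marker shapes for the replicate numbers and linear axes from 0. Control replicates 2 and 4 sit lowest on Adamts2 (488 and 399), and knockout replicates 1 and 4 highest (2004 and 2272).

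Upstream sequence was available for 7 of the 10 genes, from RefSeq on GRCm38.p6, the same coordinates as mm10. Shown are the 250 bases before the RefSeq start of Adamts2 and Adamts14, the pair of N-proteinases called higher, and of Adamts1, the abundant aggrecanase that was not called. Capitals mark the motif matches. The windows are chr11:50601835-50602084 (plus strand) for Adamts2, chr10:61273420-61273669 (minus strand) for Adamts14 and chr16:85803114-85803363 (minus strand) for Adamts1, each written 5′ to 3′ in the direction of the gene. The RefSeq start differs from the GENCODE gene ends given above, so that the last 19 bases of the Adamts14 window and the last 1 of the Adamts2 window lie inside the GENCODE gene.
Adamts2: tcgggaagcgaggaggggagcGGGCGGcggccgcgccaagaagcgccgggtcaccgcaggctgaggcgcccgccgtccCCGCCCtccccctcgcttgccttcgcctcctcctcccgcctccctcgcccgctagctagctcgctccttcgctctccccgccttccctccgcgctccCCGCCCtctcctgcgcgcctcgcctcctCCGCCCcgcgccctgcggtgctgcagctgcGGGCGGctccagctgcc
Adamts14: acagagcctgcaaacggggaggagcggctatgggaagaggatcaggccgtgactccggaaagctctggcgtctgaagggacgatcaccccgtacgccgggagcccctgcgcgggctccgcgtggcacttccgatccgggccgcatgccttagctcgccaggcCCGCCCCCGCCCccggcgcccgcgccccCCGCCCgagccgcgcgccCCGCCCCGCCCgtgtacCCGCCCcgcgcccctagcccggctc
Adamts1: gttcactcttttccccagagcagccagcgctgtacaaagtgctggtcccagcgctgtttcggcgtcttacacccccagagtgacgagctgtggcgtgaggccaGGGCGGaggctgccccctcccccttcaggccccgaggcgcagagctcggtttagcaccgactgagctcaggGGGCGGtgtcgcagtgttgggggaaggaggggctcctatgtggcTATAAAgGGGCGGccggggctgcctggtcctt

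The letters searched for, on both strands, were TATAAA for the site of the TATA-binding protein, GGGCGG for the core site of SP1, TGANTCA for the AP-1 site, TGTGGT for the RUNX site, CACGTG for the E-box and GGAATG for the TEAD site. Among the 32851 upstream windows of the same length in the table, the letters of the TATA-binding protein were found in 12.4%, of SP1 in 32.7%, of AP-1 in 6.75%, of RUNX in 14.0%, of the E-box in 6.02% and of TEAD in 12.6%. GGGCGG occurred 5 times before Adamts2, 3 times before Adamts1 and 6 times before Adamts14, where 2 of the matches share a base. Of the 7 genes searched, 6 held it, Adamts12 being the exception. TATAAA occurred in 1 of the 7, before Adamts1, with its last base 27 bases before the RefSeq start. The letters given for the remaining 4 motifs were not found in any of the 7 windows. Other spellings of these sites were not searched, so their absence is not shown. The windows of Adamts2 and Adamts14 were 78.0% and 76.4% G or C and that of Adamts1 65.6%, against a median of 52.4% over all windows, and GC-rich windows hold GGGCGG more readily. The members without an entry were Adamts4, Adamts5 and Adamts15.

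Adamts12 cleaves cartilage oligomeric matrix protein (COMP), a glycoprotein that binds collagen. It lies on chromosome 15 from 11064790 to 11349231. Its normalised read counts were 28.1, 44.4, 82.3 and 59.1 in the control libraries and 127, 120, 56.5 and 121 in those labelled knockout. Knockout replicate 3 fell inside the control range and the other 3 lay above it. The log2 difference was 1.01, with a 95% interval of 0.21 to 1.81 (limma adjusted p = 0.0673, exact permutation p = 0.0857). The gene was called without knockout replicate 3 (difference 1.28, adjusted p = 0.0226), without control replicate 3 (1.25, adjusted p = 0.0331) and by DESeq2 (adjusted p = 0.0262).

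Timp3, the inhibitor, lies on chromosome 10 from 86300372 to 86349506 inside the gene Syn3, which is read from the opposite strand and shares 21.3% of the exon bases of Timp3. The control libraries held 1105, 800.5, 1089 and 1061 normalised reads and the libraries labelled knockout 1178, 751, 959 and 1086. The groups covered nearly the same range, and replicate 2 was the lowest library of each. The means were 1014 ± 144 and 994 ± 185 (SD, n = 4 each), and the log2 difference was -0.04 with a 95% interval of -0.38 to 0.31 (limma adjusted p = 0.883, exact permutation p = 0.771). The interval excludes a change of 1 on the log2 scale in either direction. The sign of this small difference was positive under quantile normalisation and under a scaling on totals without muscle, red cell and neutrophil markers.

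Protease to inhibitor ratios, among the ratios chosen after values were seen, were compared per kilobase. For Adamts4 to Timp3 the ratio was 0.0431, 0.0384, 0.0727 and 0.0140 in the control libraries and 0.219, 0.289, 0.140 and 0.159 in those labelled knockout. These groups were separate (log2 difference 2.43, exact permutation p = 0.0286, adjusted 0.0857). The Adamts15 to Timp3 ratio was also separate, at 0.0573 to 0.0605 against 0.114 to 0.208 (log2 difference 1.46, exact permutation p = 0.0286, adjusted 0.0857). Adamts5 to Timp3 overlapped between the groups, at 0.210 to 0.418 and 0.346 to 0.608 (log2 difference 0.62, exact permutation p = 0.114, adjusted 0.171). Ratios of transcripts say nothing of the amounts of active protein.

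The other 3 TIMP genes were all called, 2 of them higher and 1 lower. Timp1, an inhibitor of many matrix metalloproteinases, had 201, 473, 1087 and 133 normalised reads in the control libraries and 1875, 2250, 1497 and 2387 in those labelled knockout (log2 difference 2.52, limma adjusted p = 0.0121). Timp2 rose from 4626 ± 1806 to 9836 ± 2516 (1.12, adjusted p = 0.0138), with knockout replicate 3 just below control replicate 3. Timp4 fell by 1.16 on the log2 scale (adjusted p = 0.0434), with 611, 675, 531 and 607 in the control libraries and 162, 174, 622 and 300.2 in the others, so knockout replicate 3 lay at the control level. The Timp4 call was lost by edgeR (adjusted p = 0.0963), under quantile normalisation (0.0545), under the scaling without muscle, red cell and neutrophil markers (0.0657) and without any 1 library other than knockout replicate 3 (0.0569 to 0.107).

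**Figure D5:**
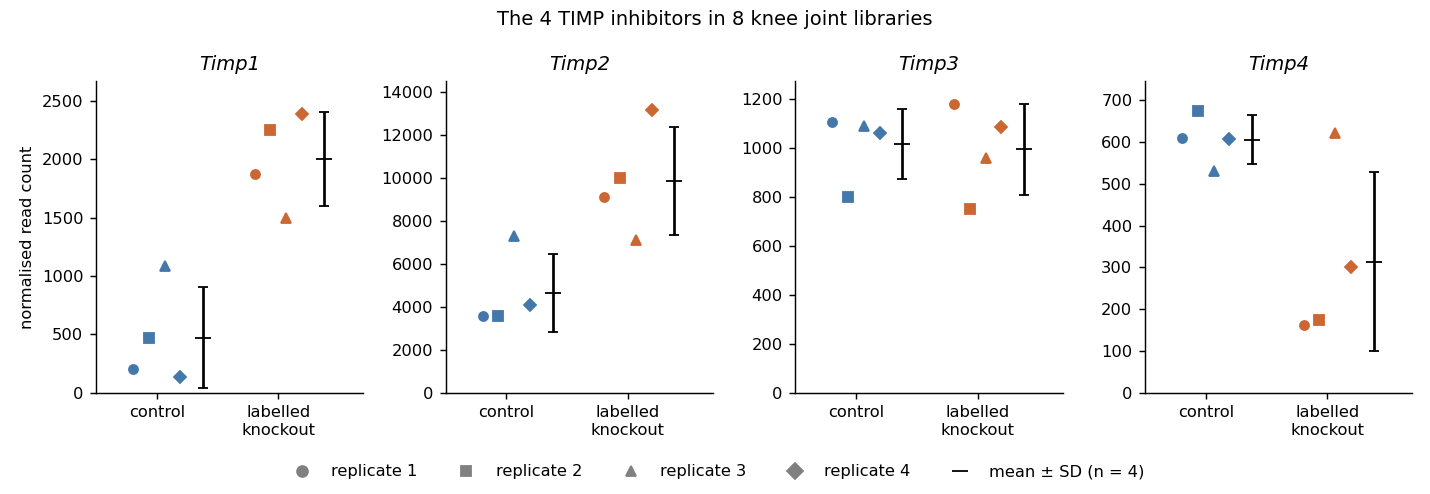
Normalised read counts of Timp1, Timp2, Timp3 and Timp4, with 1 point per library, marker shapes for the replicate numbers and bars for the mean ± SD of 4 libraries per group; each panel has its own axis from 0. Timp1 is at most 1087 in the control libraries and at least 1497 in those labelled knockout, Timp3 covers 751 to 1178 over all 8, and Timp4 is lower in 3 of 4 libraries labelled knockout.

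Of the 6 other metalloproteinases that TIMP3 is known to inhibit, all 6 were called higher, against 11.6% of all tested genes. Their median log2 difference was 1.93, against 0.00 over all tested genes. Adam12, a protease of growing and regenerating connective tissue, rose from 72.0 ± 34.9 to 376 ± 102 (log2 difference 2.47, limma adjusted p = 0.00397). Mmp14, a membrane-bound collagenase, rose from 1116 ± 729 to 4869 ± 1281 (2.28, adjusted p = 0.00510). Mmp13, the main collagenase of cartilage breakdown and of bone, rose from 1220 ± 975 to 7645 ± 4004 (2.93, adjusted p = 0.00993). Adam10, a sheddase of cell surface proteins, rose from 485 ± 39.2 to 639 ± 38.7 (0.40, adjusted p = 0.0149). Mmp2 was called at a difference of 1.59 (limma adjusted p = 0.0245) although its groups overlapped. Adam17 was called near the threshold, at 0.34 (limma adjusted p = 0.0471).

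Among the other ADAMTS proteases, 8 of 10 were tested, 1 was called higher and 0 were called lower by limma, with a median log2 difference of 0.57. Adamts10, a protease linked to fibrillin microfibrils and the most abundant of this list per kilobase, had 606, 298, 427 and 400 normalised reads in the control libraries and 737, 677, 699 and 813 in those labelled knockout (log2 difference 0.80, limma adjusted p = 0.0153). Among 7 ADAMTS-like genes, whose proteins lack the catalytic domain, limma and edgeR called 0 and DESeq2 1, and 2 had an unadjusted limma p under 0.05. The most abundant of them per kilobase, Adamtsl5, had a log2 difference of 0.04 (limma adjusted p = 0.906), the sign of which turned in 3 of the 8 fits without 1 library. The lectican substrates of the aggrecanases gave 0 calls among 3 tested genes by limma, edgeR and DESeq2, with 2 at an unadjusted limma p under 0.05 and all 3 with a positive difference. Acan had 544, 101, 52.3 and 186 normalised reads in the control libraries and 372, 358, 231 and 184 in the others (log2 difference 0.84, limma adjusted p = 0.326). The Acan difference moved widely: it was 1.45 and called without control replicate 1 (adjusted p = 0.0383), 0.33 without control replicate 3, and 0.38 by edgeR and by DESeq2, none of the last 3 called.

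The C-proteinases, which remove the other propeptide of procollagen, and their enhancers had 3 of 4 tested genes called higher. Pcolce, the enhancer of the C-proteinases, rose from 1467 ± 646 to 3482 ± 710 (log2 difference 1.32, limma adjusted p = 0.00977). Bmp1, the main C-proteinase, rose from 1257 ± 533 to 2704 ± 667 (1.18, adjusted p = 0.0201), and Tll1, a relative of Bmp1, from 11.4 ± 8.66 to 35.8 ± 11.1 (1.72, adjusted p = 0.0246). The call of Bmp1 was lost when replicate 2 or 4 of either group was left out (adjusted p 0.0531 to 0.0630), and that of Tll1 without any 1 library other than control replicate 3 and knockout replicate 3 (0.0535 to 0.0692).

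Of the 6 genes for activation and clearance, 2 were called higher and 0 lower. Lrp1, the endocytic receptor that removes aggrecanases and TIMP3 from the matrix, rose from 3647 ± 999 to 8838 ± 1797 (log2 difference 1.29, limma adjusted p = 0.00456). Sdc4, a cell surface proteoglycan linked to Adamts5 activity, rose from 565 ± 38.7 to 747 ± 75.6 (0.40, adjusted p = 0.0201), and its call was lost without control replicate 2 (0.0599), knockout replicate 1 (0.0530) or knockout replicate 4 (0.0591). Furin, the convertase that activates ADAMTS precursors, was not called (0.21, adjusted p = 0.140).

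Of 7 genes listed as inducers of aggrecanase transcription, only Tgfb1 and Runx2 had enough reads to be tested, and both were called higher. Tgfb1 rose from 439 ± 120 to 879 ± 278 (log2 difference 0.99, limma adjusted p = 0.0184) and Runx2, a transcription factor of bone and hypertrophic cartilage, from 138 ± 90.5 to 410 ± 142 (1.75, adjusted p = 0.0206). Their calls were lost without knockout replicate 4 (0.0513 for Tgfb1 and 0.0558 for Runx2) or control replicate 4 (0.0507 and 0.0550), that of Tgfb1 also without control replicate 2 (0.0544) and that of Runx2 also without knockout replicate 1 (0.0537). The 5 cytokine genes Il1a, Il1b, Tnf, Osm and Il6 were below the filter, with at most 20 reads in any library. Among them the groups did not overlap for Tnf, at 2.02 to 7.57 normalised reads in the control libraries and 9.97 to 16.3 in the others (exact permutation p = 0.0286), and overlapped for the other 4, Il1b having 4.04 to 14.1 and 1.76 to 17.1. Of the 3 genes of VEGF-C processing, 0 were called by limma and 1 each by edgeR and DESeq2, with 1 at an unadjusted limma p under 0.05, and Vegfc had a log2 difference of 0.39 (limma adjusted p = 0.205). Over the 10 lists, 46 of 55 genes were tested, 19 were called higher and 1 lower. That is 43.5% of the tested genes of the lists, against 23.2% of all tested genes in either direction and 11.6% in the higher direction. The lists were chosen with earlier results of these data known, so this comparison is a description and not a test.

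Markers of several cell types, though not of all, also differed between the groups. A knee joint holds many tissues, and in such a mixture fewer cells of a type and less RNA per cell cannot be told apart. All 7 macrophage markers were called higher, and their summed level was 1357 to 3161 normalised reads in the control libraries and 4839 to 6608 in those labelled knockout. Of the 8 fibroblast markers 3 were called higher by limma, 3 by edgeR and 4 by DESeq2, with sums of 18142 to 48781 and 36713 to 77119. At an unadjusted limma p under 0.05, 7 of the 8 fibroblast markers were higher. Osteoclast markers gave 5 of 6 called higher by limma and 4 by edgeR and by DESeq2 (1473 to 10068 and 8257 to 29595), osteoblast markers 3 of 6 by limma and 1 by edgeR and by DESeq2 (1018 to 6736 and 5452 to 11767) and tendon markers 3 of 4 by limma, 2 by edgeR and 4 by DESeq2 (1938 to 4700 and 6567 to 9152). Chondrocyte markers gave 1 of 8 called higher by limma, Hapln1, 1 by edgeR and 2 by DESeq2. Their sums were 3627 to 9210 and 9446 to 14259, and Matn3 was at 0 in control replicate 3. Comp was the largest part of these sums in every library, at 2565 to 6974 and 5810 to 11075. The mean log2 level of the chondrocyte list overlapped between the groups, at 6.74 to 8.08 and 7.91 to 8.31. The skeletal muscle list gave 4 of 8 called lower by limma and 7 by edgeR and by DESeq2. Endothelial, neutrophil, erythroid and fat markers gave 0 calls by limma and edgeR (of 6, 5, 6 and 5 tested genes), and DESeq2 called 1 fat marker lower. At an unadjusted limma p under 0.05 were 0 endothelial, 0 fat, 1 neutrophil and 6 erythroid markers, the last 2 groups all lower. Mural cell markers gave 2 of 6 called higher. The part of these markers in the differences of the ADAMTS genes was not tested. With the mean log2 level of the muscle list added to the fit, limma called 0 of the 10 genes and 0 of all genes. An unadjusted p under 0.05 was then left for 1 of 10 and 585 of 14949. Standard errors were larger in that fit: the difference of Adamts4 was 2.60 ± 1.26 (SE), of Adamts9 1.60 ± 0.57, of Adamts2 1.055 ± 0.680, of Adamts15 0.80 ± 0.39 and of Adamts14 0.48 ± 0.85. For comparison, the group label accounted for 86.4% of the variance of that mean level.

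The libraries ranked alike over several genes. Knockout replicate 3 was the lowest of its group for 6 of the 10 genes, knockout replicate 1 the highest for 6, and control replicates 1 and 3 each the highest control for 4. Those of replicate 3 were Adamts2, Adamts4, Adamts12 and Adamts14, and those of replicate 1 Adamts3, Adamts9, Adamts15 and Timp3. Control replicate 3 also had the highest control values of Loxl2 and Timp1. For each gene, the closest other genes by Pearson correlation of log2 values over the 8 libraries were found, as a description in which the group difference takes part. For Adamts2 they were Mmp14 (r = 0.993) and Serpinh1 (0.991), a collagen chaperone gene, and for Adamts14 Pcolce (0.998) and Mrc2 (0.997), a collagen uptake receptor gene. For Adamts4 they were Emilin1 (0.993) and Sdc1 (0.993), and for Adamts15 Msmo1 (0.989) and Cxcl16 (0.988). For Adamts5 they were Fam208a (0.974) and Osr1 (0.969), for Adamts12 Phc3 (0.979) and Tmem167 (0.979), for Adamts3 Slc33a1 (0.971) and Cyr61 (0.971), and for Adamts9 Csf2rb (0.966) and Chdh (0.956). For Adamts1 they were Gm4841 (0.973) and Gm28229 (0.951), and for Timp3 Mindy4 (0.933) and Swsap1 (0.931). The number of genes with r of at least 0.9 was 793 for Adamts2, 716 for Adamts14, 503 for Adamts4 and 493 for Adamts15, and 14 for Adamts1 and 9 for Timp3.

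Another scaling moved the calls. When the library totals left out the marker lists of muscle, red cells and neutrophils, together with the 50 highest genes, the median difference of all genes was 0.15, 7 of the 10 genes were called, and over all genes 2720 were called higher and 777 lower, against 1732 and 1729 with the deposited scaling. The 3 added calls were Adamts5 (adjusted p = 0.0466), Adamts9 (0.0336) and Adamts12 (0.0453). Relative to that median their differences were 0.58, 0.67 and 1.01, and those of Adamts1 and Timp3 were -0.23 and -0.04.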

How the data were processed

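The deposited table gives 1 normalised signal per gene and library, a read count divided by a size factor. Per the labels' design text, the authors aligned reads to mm10, counted them with featureCounts and used DESeq2 for normalisation and filtering, and the submitters' processing notes name HISAT2. Versions, annotation and strand use are not given in the sources used here. All values (100%, within 0.01 of a read) were whole multiples of a step per column, which gave whole reads for edgeR and DESeq2. In 2 columns (control 2, knockout 1) that step is close to 1. Of the value columns 0 were unmapped.

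Groups came from sample titles. Genes reaching 10 in 4 or more libraries were tested with limma 3.58.1 (log2 of the value plus a pseudocount of 1, intensity trend, no block), with edgeR 4.0.16 and DESeq2 1.42.0 as alternatives. Exact two-sided permutation tests used all 70 assignments of the libraries. Short fits with limma, edgeR and DESeq2 were also run on simulated counts with known changes and the same spread set for all genes. They do not show how the tests perform on the spread of these libraries. Chi-square over its degrees of freedom was 25.79 to 66.1 in the 12 within-group pairs, far more than sampling noise, so all 8 libraries were counted separately. Nothing in the labels says that the libraries came from separate animals, so p-values measure the spread between these samples, which may be technical.

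The genes and lists were chosen with earlier results of these data known. All 10 genes are named, with at most 4 called genes per list and the list's most abundant gene per length, and the 2 closest genes by correlation. The 9 ratios, and the motifs, were chosen after values were seen. Genes named beyond this rule, Col2a1, Furin, Mmp2, Adam17, the untested cytokines and the markers, were also chosen after values were seen. Of the table's rows, 99.2% matched GENCODE M21 by symbol.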

Additional observations from a re-analysis of the deposited data

Results flagged for a closer look

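In 4 of the 20 sets of 4 libraries (10 genes, 2 groups), 1 library lay far from the other 3, with a gap to its neighbour above Dixon's 95% critical share of the range, where chance flags about 1 set in 20. Adamts9 in control replicate 1 was high at 145 normalised reads, which is what makes the groups of Adamts9 overlap. Adamts12 in knockout replicate 3 was low at 56.5, inside the control range. Adamts15 in control replicate 2 was low at 61.6, farther from the libraries labelled knockout than the other controls. Timp3 in control replicate 2 was low at 800.5.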

How the results depend on the processing

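The 10 genes were recomputed under 19 alternatives (pseudocounts of 0.1 and 10, 2 filters, 3 scalings, edgeR, DESeq2, the replicate block, a muscle covariate and leaving out each of 8 libraries), 189 values in all, since Adamts3 did not pass the filter at 50. Of these, 165 kept direction and side of the threshold, 11 gained a call, 6 lost one and 7 turned sign. The count of the 10 genes called was 4 to 5 without 1 library, 7 under the scaling without muscle, erythroid and neutrophil lists, 6 with DESeq2, and 0 with the muscle covariate. The count over all genes was 3461, and 1751 to 3841 without 1 library (lowest 1751 without knockout replicate 4, then 1887 and 2194 with control replicate 2 or 4 left out), and 0 with the muscle covariate. DESeq2 called 4125 of all genes, or 27.6%, and the scaling without those lists 3497, or 23.4%, against 23.2% in the main fit. The cause of these shifts was not tested.

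With the muscle covariate the difference of Adamts1 was 0.44, of Adamts3 -0.36, of Adamtsl5 -0.28 and of Tgfb1 -0.34. The other genes given these alternatives kept their sign, all with larger standard errors, from Adam12 at 2.71 against 2.47, Adamts4 at 2.60 against 2.33 and Col3a1 at 2.40 in both fits to Bmp1 at 0.0046 against 1.18. Timp3 was at 0.056 under quantile normalisation, 0.11 under the scaling without the 3 lists, and -0.147 to 0.0903 over the fits without 1 library, with a positive sign in 3 of them (control 1, control 3 or knockout 2 left out). Adamtsl5 was at -0.0862 to 0.256 over those fits, negative in 3 (control 1, knockout 3 or knockout 4 left out).

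Under the replicate block 2018 genes were called, 3 of the 10 among them, with Adamts14 at a limma adjusted p of 0.0506. The shared numbers are not stated to pair samples. Deviations from group means correlated at 0.21, -0.12, -0.23 and -0.06 for numbers 1 to 4. Only the libraries of number 1 correlated best with their own number. The list genes named by the rule, and Loxl2, were given the same alternatives after the data were seen. The 9 ratios were recomputed without each library. Few reads lie behind Adamts3 (6 to 30) and Adamts4 in control libraries (lowest 8).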
